A study of Mus musculus with 10 samples.

Results

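The genes described here encode proteins that build, hold or supply the outer segment of photoreceptors. They are 10 listed symbols (Prph2, Rom1, Abca4, Prom1, Cdhr1, Rp1, Rp1l1, Tulp1, Reep6 and Fscn2) of the 24736 gene symbols in the mRNA table, chosen by name and with earlier results of these data known. All 10 were in the table and all 10 passed the filter on low counts. RNA came from whole eyeballs of Kunming mice, which are outbred, all female and labelled 4 weeks old. The blue light group (3 libraries: blue A, B and C) was kept under an 18 W blue lamp inside a dark container, and the natural light group (2 libraries: natural A and B) was kept in natural light. The sample titles carry day 14. The labels do not tell whether a library came from 1 animal or several, so p-values measure the spread between these libraries, which may be technical.

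The outer segment is a modified cilium filled with stacked membrane discs that carry the light-sensing proteins. Discs are added at its base and shed at its tip, so their proteins and lipids are replaced throughout life. A microtubule axoneme runs along the stack, and tetraspanins bend the rim of each disc. Loss of function of many of these genes causes retinal degeneration in mice and inherited retinal dystrophy in humans.

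Library totals ran from 93202801 to 102602360 estimated counts in the blue libraries and from 87071487 to 107660103 in the natural ones. Levels are TMM-scaled counts relative to a common library total (CPM), and log2 fold changes (log2FC) are blue over natural light. Across the table, 295 of 18988 tested genes were lower and 126 higher in the blue libraries (edgeR quasi-likelihood test, adjusted p under 0.05), and with library totals as the only scaling these were 150 and 125. Summed lens markers lay between 36783 and 38947 CPM in the blue libraries and between 36723 and 36858 CPM in the natural ones, so lens RNA was present at a like level in all 5 libraries. The share of Rn45s, a ribosomal RNA precursor, was 10.8%, 8.69% and 14.4% in blue A, B and C and 4.30% and 14.1% in natural A and B, and its part in the results was not tested apart from the fit with that share as a covariate. Skeletal muscle markers were highest in blue A (1444 CPM summed, against 749 and 770 CPM in blue B and C) and in natural B (1510 CPM, against 700 CPM in natural A).

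Every one of the 10 genes stood lower in the blue libraries, with each blue library below each natural one. Of the 10, 8 fell in the test over all genes, against a background of 1.55% of tested genes called lower, and 0 rose, against 0.664%. Groups that did not overlap in this direction were seen for 20.1% of all tested genes. Fitted levels were between 27.2% (Prph2) and 65.5% (Prom1) of natural light, and the median log2FC was -1.34, beside -0.0056 over all tested genes. In a whole eyeball, fewer photoreceptors and less RNA per photoreceptor cannot be told apart.

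**Figure D1:**
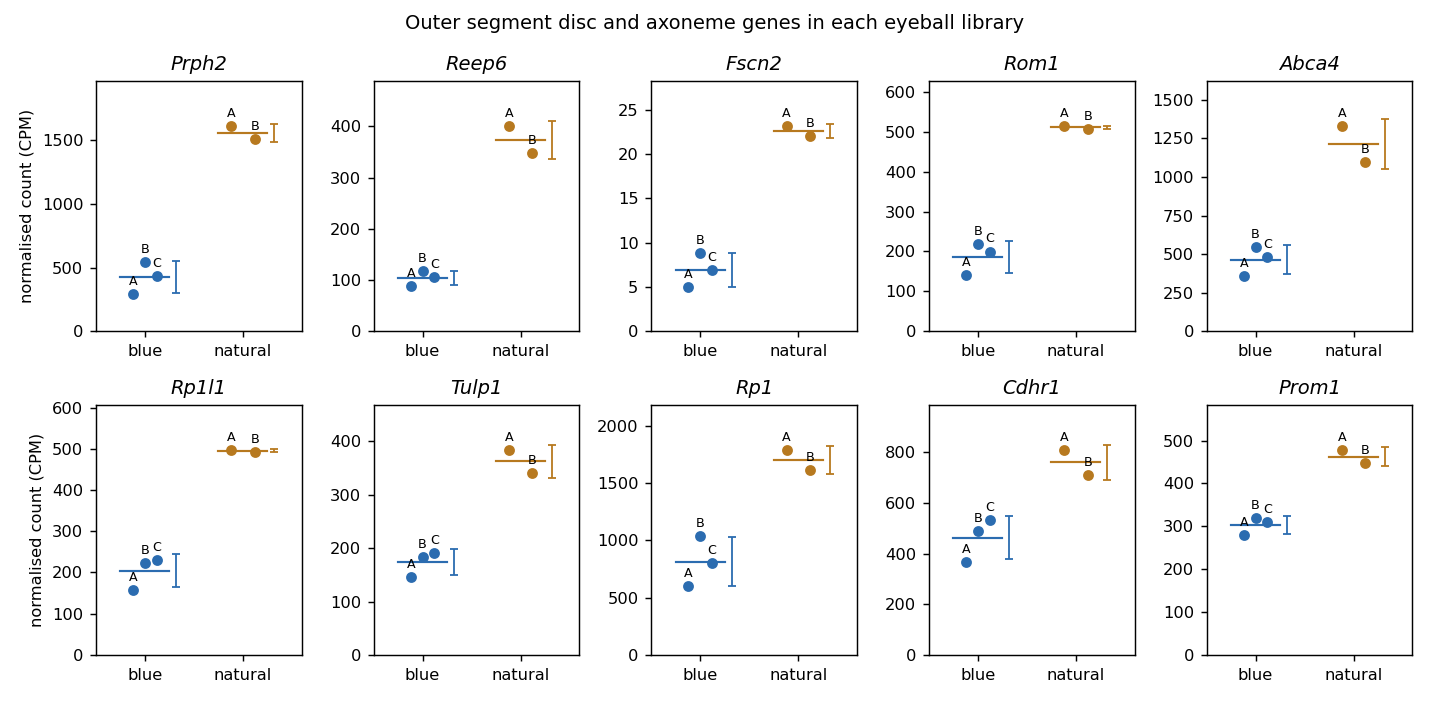
Normalised counts (CPM, linear axes from 0) of the 10 genes in blue A, B and C and natural A and B, ordered by log2FC; points are libraries, horizontal lines group means and bars 1 SD beside them (n = 3 blue, n = 2 natural). In every panel all 3 blue points lie below both natural points, and blue A is the lowest point.

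The 250 bases before each annotated start of the 10 genes (RefSeq, GRCm38.p6) were searched on both strands for the letters TAATC. These letters are the core of sites bound by CRX and OTX2. The table held 8 such windows for 7 of the 10 genes. The windows of Abca4 and Fscn2 and each window of Prom1 lie inside the RefSeq span of the gene, not before its outer end. Whether any window acts as a promoter was not tested. TAATC was in 3 of the 8, against 19.8% of 32851 windows of all genes. TAATCC, which contains it, was in 1 of the 8, that of Abca4, against 6.25% of all windows, and TGCTGA, part of the site bound by NRL, in 0 of the 8, against 16.1%. Prph2 and Abca4 each held TAATC 2 times, on the opposite strand at bases 61 to 57 and 57 to 53 before the start and on the gene's strand at bases 30 to 26 and 28 to 24. Of the 2 Prom1 windows, the one printed below held it 1 time, at bases 28 to 24. The other, at chr5:44101737-44101986 and nearer the outer end of the gene, did not hold it. A match is a run of letters, not a bound site, and the other windows say only that these letters are not in them. The 3 windows with a match are printed 5′ to 3′ on the gene's strand, with TAATC or its reverse complement in capitals; they are shown because they include the gene with the lowest log2FC (Prph2) and the one with the highest (Prom1, 1 of 2 annotated starts).
Prph2, chr17:46910228-46910477, plus strand: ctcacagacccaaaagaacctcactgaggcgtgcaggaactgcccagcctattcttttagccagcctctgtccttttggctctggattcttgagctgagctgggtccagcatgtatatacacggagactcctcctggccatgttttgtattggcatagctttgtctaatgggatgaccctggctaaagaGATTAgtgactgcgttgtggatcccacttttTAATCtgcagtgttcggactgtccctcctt
Abca4, chr3:122044210-122044459, plus strand: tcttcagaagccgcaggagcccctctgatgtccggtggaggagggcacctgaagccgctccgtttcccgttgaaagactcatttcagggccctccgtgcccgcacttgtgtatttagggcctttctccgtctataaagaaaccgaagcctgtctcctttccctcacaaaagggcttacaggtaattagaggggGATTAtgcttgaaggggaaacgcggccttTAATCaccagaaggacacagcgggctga
Prom1, chr5:44094769-44095018, minus strand: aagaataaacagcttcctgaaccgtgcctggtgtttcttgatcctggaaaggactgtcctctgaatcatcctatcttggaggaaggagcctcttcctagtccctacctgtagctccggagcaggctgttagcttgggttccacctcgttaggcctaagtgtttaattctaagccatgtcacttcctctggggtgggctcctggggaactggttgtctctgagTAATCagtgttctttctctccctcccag

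All 3 genes of the disc rim fell. Prph2, the tetraspanin that curves and closes the rim (chromosome 17, 46910478 to 46924933, mm10), had 293, 545 and 434 CPM in blue A, B and C, against 1612 and 1511 CPM in natural A and B. The highest blue library reached 36.0% of the lowest natural one. Its log2FC was -1.88 (SE 0.24, adjusted p = 0.0269 in edgeR), a 3.68-fold lower level and the lowest log2FC of the 10. Rom1, the tetraspanin that pairs with Prph2 (chromosome 19, 8927382 to 8929356), had 141, 219 and 200 CPM in the blue libraries, against 514 and 508 CPM in the natural ones. Its groups were well apart, and it fell (log2FC -1.45, SE 0.18, adjusted p = 0.0249 in edgeR). Abca4, the rim transporter that clears retinaldehyde adducts from the disc lumen (chromosome 3, 122043891 to 122180070), had 360, 548 and 481 CPM in blue eyes, against 1329 and 1099 CPM in natural light eyes. It fell (log2FC -1.39, SE 0.19, adjusted p = 0.0288 in edgeR).

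The partner tetraspanins stood in a lower ratio in the blue libraries. Within a library, the CPM ratio of Prph2 to Rom1 was 2.08, 2.48 and 2.17 in blue A, B and C, against 3.13 and 2.98 in natural A and B, or 2.24 ± 0.21 (SD, n = 3) against 3.05 ± 0.11 (SD, n = 2). These ratios are not corrected for transcript length and give no ratio of molecules. The ranges did not overlap, but an exact 2-sided permutation test over 3 against 2 libraries can give no p under 0.2, which is the p of this ratio. Of 4 such ratios computed, that of Prph2 to Prom1 differed most. It was 1.05, 1.71 and 1.40 in the blue libraries and 3.37 and 3.38 in the natural ones (exact permutation p = 0.2). Prph2 had the lowest log2FC of the described genes (-1.88) and Prom1 the highest (-0.61). That their ratio differed most follows from those values and is not a separate result. The other 2 ratios, Rp1 to Rp1l1 and Cdhr1 to Prom1, overlapped between groups.

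The genes of newly forming discs had the log2FC closest to 0 of the 10. Prom1, a membrane protein of the evaginating disc edge that other epithelia also make (chromosome 5, 43993621 to 44102047), had 279, 319 and 311 CPM in the blue libraries, against 478 and 447 CPM in the natural ones. It fell (log2FC -0.61, SE 0.085, adjusted p = 0.0308 in edgeR), and its blue libraries lay within 1.14-fold of each other. Cdhr1, the photoreceptor cadherin at the base of the disc stack (chromosome 14, 37077849 to 37098347), had 367, 487 and 531 CPM in blue A, B and C, against 809 and 710 CPM in natural A and B. Its groups did not overlap, but with a log2FC of -0.72 (SE 0.16) it missed the threshold (adjusted p = 0.108 in edgeR).

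Both axoneme genes of the doublecortin family were lower, and 1 of them passed. Rp1, which binds and stabilises axonemal microtubules (chromosome 1, 4115673 to 4409266), had 604, 1036 and 805 CPM in the blue libraries, against 1789 and 1611 CPM in the natural ones. Blue A and blue B differed 1.72-fold, and the log2FC of -1.06 (SE 0.22) had an adjusted p of 0.0816 in edgeR. Rp1l1, its close relative in the same axoneme (chromosome 14, 63992431 to 64033506), had 158, 222 and 231 CPM in blue eyes, against 497 and 493 CPM in natural light eyes. The natural libraries were within 1.01-fold of each other, and Rp1l1 fell (log2FC -1.28, SE 0.17, adjusted p = 0.0271 in edgeR).

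The genes that supply the outer segment fell too. Tulp1, a tubby family protein needed for moving outer segment proteins out of the inner segment (chromosome 17, 28351515 to 28365216), had 146, 184 and 191 CPM in the blue libraries, against 384 and 341 CPM in the natural ones. It fell (log2FC -1.06, SE 0.13, adjusted p = 0.0249 in edgeR). That log2FC equals the one of Rp1 to 2 decimals, but the blue libraries spread 1.31-fold for Tulp1 and 1.72-fold for Rp1. Reep6, an endoplasmic reticulum and vesicle protein of rods (chromosome 10, 80329997 to 80336441), had 89.1, 118 and 105 CPM in blue A, B and C, against 400 and 347 CPM in natural A and B. It had the smallest adjusted p of the 10 (0.0137 in edgeR), with a log2FC of -1.85 (SE 0.13). Fscn2, the photoreceptor and hair cell fascin that bundles actin (chromosome 11, 120360165 to 120368173), was the least counted of the 10, with 505, 948 and 634 estimated counts in the blue libraries and 2579 and 1786 in the natural ones. Its levels were 5.0, 8.83 and 6.96 CPM in blue eyes, against 23.2 and 22.1 CPM in natural light eyes, and it fell (log2FC -1.71, SE 0.23, adjusted p = 0.0301 in edgeR).

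The blue libraries spanned a wider fold range than the natural ones, and in a shared order. Blue A was the lowest blue library for all 10 genes, while blue B was highest for 7 and blue C for 3. Set against the mean of the natural libraries, the 10 genes ran from 18.8% to 60.3% in blue A (median 30.8%), from 31.5% to 69.0% in blue B (median 45.0%) and from 27.8% to 69.8% in blue C (median 43.1%). Between the highest and lowest library of a group the genes spread 1.14-fold to 1.86-fold in the blue group and 1.01-fold to 1.21-fold in the natural group. These ranges are over 3 and 2 libraries, and a range tends to widen with more libraries. The SD in CPM was larger in the natural group for Prom1, Tulp1, Abca4 and Reep6, and in the blue group for the rest. Natural A was above natural B for all 10. Skeletal muscle markers ran the other way, highest in blue A and natural B, and their part in this order was not tested. The calls rest on few libraries. Without blue C, natural A or natural B, 0 of the 10 passed in edgeR, although each of these fits had all 10 at an unadjusted p under 0.05. The same counts, 0 and 10, came from the fit with the Rn45s share as a covariate. DESeq2 called all 10 lower and limma-voom 8.

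The next comparison asked whether these genes fell as far as the transcripts of the light response itself. The 14 rod phototransduction genes listed summed to 5018, 9000 and 7189 CPM in blue A, B and C, against 26224 and 24777 CPM in natural A and B. The 10 disc and axoneme genes summed to 2442, 3686 and 3296 CPM in the blue libraries, against 7837 and 7089 CPM in the natural ones. Their sum was thus 48.7%, 41.0% and 45.8% of the rod sum in the blue libraries and 29.9% and 28.6% in the natural ones. One gene made up 29.1% to 32.3% of the rod sum in the blue libraries and 41.8% to 44.0% in the natural ones.

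With each library scaled to its rod sum, the median log2FC of all tested genes moved to 1.93, and 91% of tested genes were called higher and 0.153% lower. On this scale 4 of the 10 genes were called higher and 0 lower. Prom1 was higher by 1.30 (SE 0.39, adjusted p = 0.00103 in edgeR), Cdhr1 by 1.17 (SE 0.37, adjusted p = 0.00210), Tulp1 by 0.84 (SE 0.39, adjusted p = 0.0368) and Rp1 by 0.80 (SE 0.35, adjusted p = 0.0238). Prph2 had a log2FC of -0.034 relative to the rod sum (SE 0.35), Reep6 0.050 (SE 0.39) and Fscn2 0.15 (SE 0.43), with adjusted p of 0.924, 0.900 and 0.736 in edgeR. Rom1, Abca4 and Rp1l1 lay between, at 0.42, 0.49 and 0.60, and did not pass. On this scale the SE ran only from 0.35 to 0.43 over the 10 genes. For Prph2 and Fscn2 it was larger than the whole range of their log2 ratios over the 5 libraries (0.072 and 0.17). Passing or missing the threshold here thus does not measure the spread of each gene's own ratio. The ratios of Prph2 to the rod sum spanned 0.072 log2 units over the 5 libraries, but 0.413 with the most abundant rod gene left out of the sum, when each blue ratio was below each natural one; its log2FC was then -0.31 (adjusted p = 0.340 in edgeR), and -0.37 with the median level of the rod list as the scale (adjusted p = 0.187). Those 2 scales moved the value of all 10 genes down, with shifts of -0.29 to -0.28 and of -0.34 to -0.33 on the log2 scale. For 8 of the 10 genes each blue ratio was above each natural ratio, which held for 93.2% of all tested genes. The calls of Tulp1 and Rp1 were lost with the most abundant rod gene left out of the sum (adjusted p = 0.133 and 0.109 in edgeR), those of Prom1 and Cdhr1 were not, and without natural A or natural B 0 of the 10 passed.

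**Figure D2:**
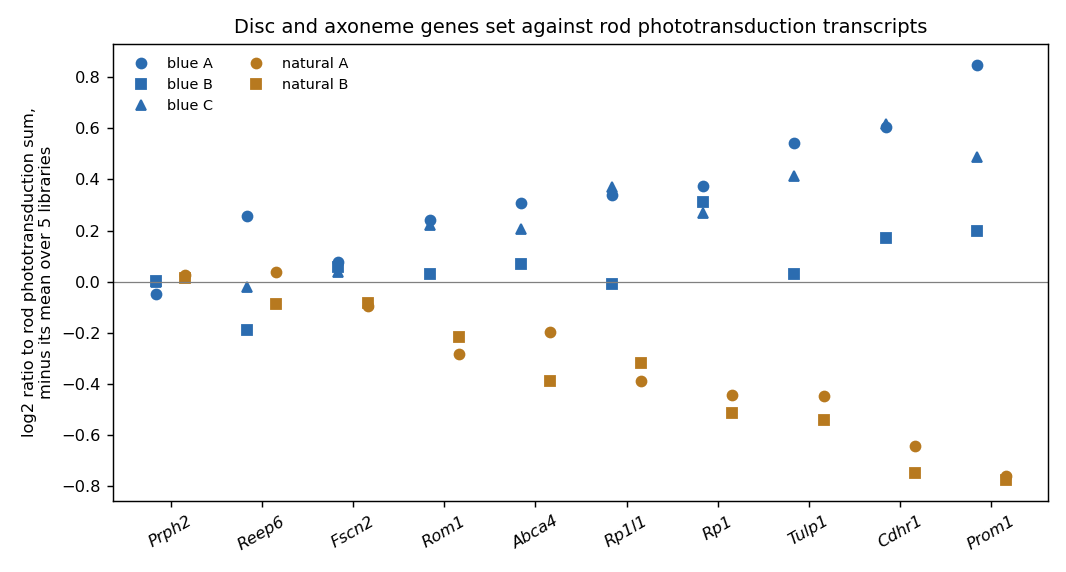
Log2 ratio of each gene's CPM to the summed CPM of 14 rod phototransduction genes, minus the gene's mean over the 5 libraries, with 1 point per library (circles A, squares B, triangles C). With this sum, which includes its most abundant gene, Prph2 points lie together near 0, whereas for Prom1 the blue points lie at 0.20 to 0.85 and the natural points at -0.78 and -0.76.

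Other genes of the outer segment, listed by role, were read from the same fit. Of 12 listed for disc and outer segment membranes, 7 fell and 0 rose, all 12 had a negative log2FC, and the median was -1.10; 3 of these genes are also in the rod phototransduction list. Rdh12, a retinol dehydrogenase, fell (log2FC -1.94, SE 0.21, adjusted p = 0.0195 in edgeR), with 41.3, 70.1 and 60.3 CPM in the blue libraries against 223 and 216 CPM in the natural ones. The photoreceptor guanylate cyclase Gucy2f fell (log2FC -1.67, SE 0.21), as did the cation exchanger Slc24a1 (-1.44, SE 0.18) and the rod channel subunit Cngb1, whose glutamic acid-rich part contacts the disc rim (-1.42, SE 0.18). Adjusted p of these 3 was 0.0249, 0.0258 and 0.0261 in edgeR. Tmem30a, the widely made flippase subunit, had a log2FC of -0.014 (adjusted p = 0.959 in edgeR; chosen after its values were seen).

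Axoneme and cilium genes outside the described set were less uniform. Of 20 listed, 19 were in the table and tested, 7 fell and 0 rose, and the median log2FC was -0.36. The lowest log2FC of the 19 was that of the ciliary microtubule protein Fam161a (log2FC -1.49, SE 0.13), with 48.6, 63.0 and 59.0 CPM in blue eyes against 169 and 150 CPM in natural light eyes. Rpgrip1, a scaffold of the connecting cilium, fell (log2FC -1.17, SE 0.11), as did Arl3, a small GTPase that releases lipidated cargo into the outer segment (-0.78, SE 0.090), and Lca5, a ciliary protein (-0.70, SE 0.073). The 4 adjusted p-values in edgeR ran from 0.0147 to 0.0217. The kinesin subunit Kif3a, made in many ciliated cells, had a log2FC of 0.0035 (adjusted p = 0.992; chosen after its values were seen). Markers of motile ciliated epithelium, another source of axoneme transcripts, summed to 61.6, 52.6 and 66.7 CPM in the blue libraries and 119 and 55.5 CPM in the natural ones, or 27.6, 30.6 and 29.7 CPM against 28.1 and 25.9 CPM without Dnah9, and 0 of 7 tested passed in edgeR, where 0 had an unadjusted p under 0.05.

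Family relatives that are not outer segment proteins were read from the same fit. Of 25 relatives listed (prominin, cadherin-related, doublecortin, tubby, ABCA, REEP, fascin and tetraspanin genes), 24 were tested, 1 rose and 0 fell, with a median log2FC of -0.039. The one that rose was Fscn1, the widely expressed fascin, with 61.6, 60.2 and 60.3 CPM in the blue libraries against 37.5 and 37.9 CPM in the natural ones (log2FC 0.69, SE 0.068, adjusted p = 0.0183 in edgeR). Fscn1 and Fscn2 thus passed in opposite directions in the main fit. Both calls were lost without blue C (adjusted p = 0.0886 for Fscn1 and 0.124 for Fscn2 in edgeR). They were also lost with the Rn45s share as a covariate (0.0776 and 0.0978) and with the letter as a replicate block (0.326 and 0.288). The log2FC of Fscn1 was 0.70 without natural A and 0.70 without natural B, and that of Fscn2 was -1.65 and -1.74. With 1 natural library left these are effect sizes only, and the calls are not said to hold there. Tulp3, a tubby protein of primary cilia, had a log2FC of 0.77 (SE 0.13, adjusted p = 0.0523 in edgeR). Tspan10, the only tetraspanin listed, had -0.53 (SE 0.15, adjusted p = 0.179), and Tub, a tubby gene, -0.49 (SE 0.15, adjusted p = 0.184). For Tspan10 and Tub each blue library was below each natural one, and for Tulp3 each was above. Fscn3 was listed at 0 in both natural libraries and at 0.178, 0.0931 and 0.165 CPM in blue A, B and C, too low for a fold change.

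**Figure D3:**
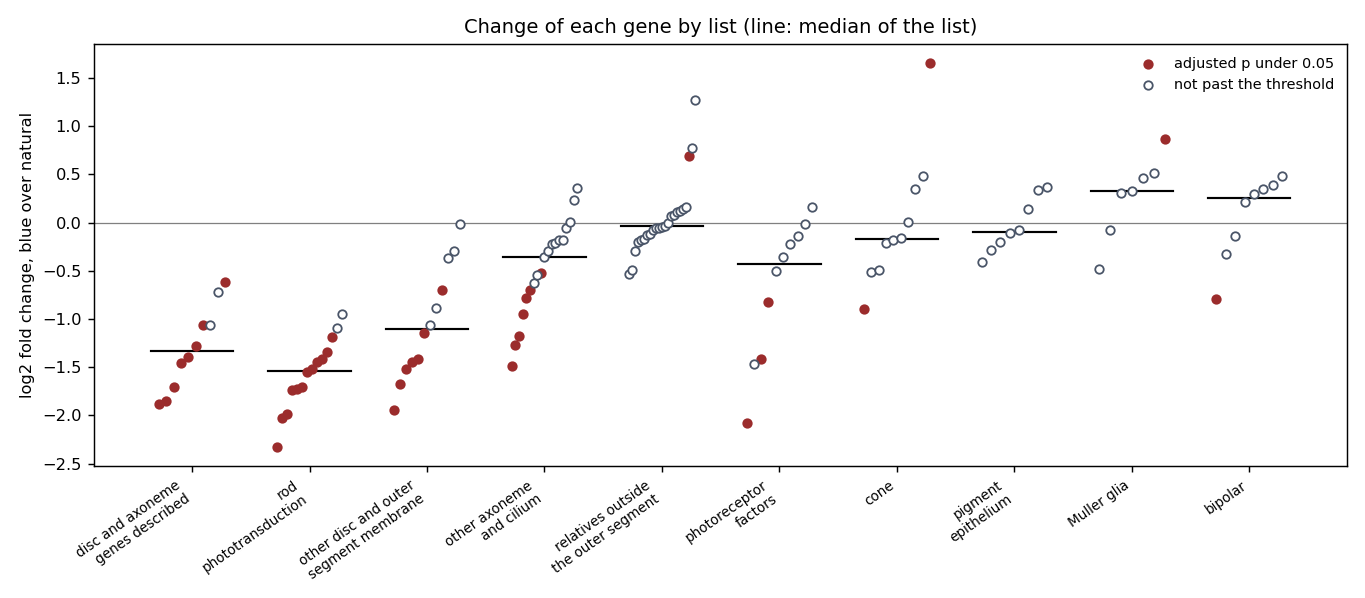
Log2FC (blue over natural) of each tested gene in 10 lists, with filled points past an adjusted p of 0.05 in edgeR, open points not, and the list median as a line; Fscn3 is in its list's median but outside the axis. The disc and axoneme genes (median -1.34) sit with the rod phototransduction genes (-1.53) and the other disc genes (-1.10), and the family relatives sit around 0.

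Lists of neighbouring retinal cells were counted in the same way. Of 14 rod phototransduction genes 12 fell (median -1.53), among them the transducin subunit Gngt1 (log2FC -1.18, SE 0.10) and the calcium sensor Guca1a (-1.55, SE 0.16), with adjusted p of 0.0146 and 0.0183 in edgeR. Of 10 cone genes 1 rose and 1 fell (median -0.17), of 8 bipolar genes 1 fell (median 0.26), of 7 Muller glia genes 1 rose (median 0.33), and of 8 pigment epithelium genes 0 passed in edgeR (median -0.095), with 2 at an unadjusted p under 0.05. Summed cone markers were 533, 694 and 606 CPM in blue A, B and C and 578 and 448 CPM in natural A and B, with overlap. The cone gene that rose, Gnb3, a G protein beta subunit that ON bipolar cells also make, had 242, 323 and 306 CPM in the blue libraries against 98.8 and 85.6 CPM in the natural ones (log2FC 1.65, SE 0.15, adjusted p = 0.0172 in edgeR). Without it the cone sum was 291, 370 and 300.3 CPM in blue eyes against 479 and 363 CPM in natural light eyes, so the order of the group means turned while the groups still overlapped. The cone gene that fell was the cone arrestin Arr3 (log2FC -0.90, SE 0.12, adjusted p = 0.0281 in edgeR). Both calls were lost without blue C (adjusted p = 0.0775 for Gnb3 and 0.113 for Arr3), natural A (0.117 and 0.159) or natural B (0.102 and 0.0840), and that of Arr3 also without blue A (0.0657), without blue B (0.0715) and with library totals as the only scaling (0.0615). Pigment epithelium markers, of a tissue that also makes Abca4, summed to 952, 1123 and 1113 CPM in the blue libraries and 997 and 1004 CPM in the natural ones, and without the most abundant of them, the transthyretin gene Ttr, to 377, 631 and 493 CPM against 546 and 582 CPM, where the order of the group means also turned. Among 10 photoreceptor transcription factor genes 3 fell, the rod factors Nrl (log2FC -2.08, SE 0.23) and Nr2e3 (-1.41, SE 0.14) and the homeodomain factor Crx (-0.82, SE 0.13), which had 314, 423 and 382 CPM in blue eyes against 657 and 662 CPM in natural light eyes. Adjusted p of these 3 was 0.0202, 0.0183 and 0.0411 in edgeR. All 3 calls were lost without blue C (0.105, 0.0880 and 0.153) and with the Rn45s share as a covariate (0.0830, 0.0776 and 0.125). That of Crx was also lost with library totals as the only scaling (0.0743). The TAATC core searched for above belongs to Crx and its relative Otx2, which had a log2FC of -0.36 (SE 0.10, adjusted p = 0.162 in edgeR).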

How the data were processed

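mRNA was sequenced from eyeballs in 3 blue light and 2 natural light libraries; the miRNA table is not used here. Per the labels' protocols, total RNA was depleted of ribosomal RNA with biotin probes, fragmented and primed at random. Per the submitters' processing notes, bcl2fastq 2.0, HISAT2, StringTie, DESeq2, limma and mm10 were used, without stated roles. The deposited values, whole numbers for each gene symbol, were treated as estimated counts that the authors did not normalise. The sources used here do not say whether counting used strand. Annotated genes overlap 3 of the 10 spans (Rp1, Abca4 and Reep6), and 0 of these overlapping genes are in the table.

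Counts were tested over the whole table in edgeR 4.0.16 (R 4.3.3): filterByExpr by group, TMM, quasi-likelihood F-test, Benjamini-Hochberg adjustment over 18988 genes, threshold 0.05. SE was computed as |log2FC| over the square root of F. The second fit replaced TMM by each library's summed counts of 14 rod phototransduction genes; the spread of that sum between libraries enters every gene's SE. Alternatives used DESeq2 1.42.0 and limma 3.58.1. On simulated counts (18710 genes), 35.7% of genes changed 2-fold and 67.0% of genes changed 4-fold were recovered, and 5.66% of calls were unchanged genes. Genes and lists were chosen with earlier results of these data known. Named were all 10 genes and up to 4 of each list by p; marker lists of other tissues are given by counts, and some genes the rule named are not reported here. Positions are from RefSeq (GRCm38.p6), for 10 of 10 symbols. Estimated counts carry no counting interval.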

Additional observations from a re-analysis of the deposited data

How the results depend on the processing

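All 10 genes kept a negative log2FC under all 14 alternatives run. The 8 calls became 0 with the letter as a replicate block and 0 with the Rn45s share as a covariate, and leaving out 1 library gave 0 to 8. Where a natural library was left out, the lone one left is assumed to vary like the blue group. Without blue B 6 passed, and with library totals as the only scaling 7. Over the whole table the 421 calls became 275 with library totals only, 1729 in DESeq2's Wald test, 0 with the replicate block (1455 genes at an unadjusted p under 0.05) and 14 with the Rn45s covariate, and leaving out 1 library gave 0 to 311. The 4 genes called relative to the rod sum were 2 without the most abundant rod gene, 2 with the median level of the rod list and 0 with the replicate block, and 0 to 5 on leaving out 1 library. Relative to the rod sum Reep6 turned to -0.23 without the most abundant rod gene and -0.29 with the list median, and ran from -0.079 to 0.15 on leaving out 1 library, while Fscn2 turned to -0.13 and -0.19 and Prph2, at -0.034, moved to -0.31 and -0.37 under the same 2 alternatives. Sums of marker lists without their most abundant gene, chosen after seeing the data, turned the difference of group means for cone and pigment epithelium markers to -100.3 and -63.5 CPM, where it was 97.8 and 62.2 CPM with all genes, and for ciliated epithelium to 2.30 CPM, where it was -27.1 CPM. The cause of these changes was not tested. Fits with 1 library left out, a block or a covariate also had fewer samples or residual degrees of freedom. The letters A and B are not said to pair libraries. Deviations of same-letter libraries from their group means correlated at -0.33 and -0.27 over genes, and those of crossed letters at 0.33 and 0.27. With 2 natural libraries the deviations of natural A and B mirror each other, so these values cannot decide on pairing. Summing overlapping genes was not run, since 0 of them are in the table.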
